A study of Triticum aestivum with 161 samples.

Results

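The nitrogen response of developing grain was examined in the wheat cultivar Xi_19. Grain from field plots given 350 kg nitrogen per ha (N350, 6 arrays) was compared with grain from plots given 100 kg per ha (N100, 6 arrays). All plots stood at Rothamsted and were chosen by the cultivar, nitrogen level, site and year in the sample titles. Each nitrogen level had 3 plots in 2010 and 3 plots in 2009, and the level of 200 kg per ha (N200, 6 arrays) served as the middle dose. These 18 arrays are part of 27 Xi_19 arrays and of 161 arrays in the series.

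The series holds 6 wheat cultivars grown at these nitrogen levels, and its caryopses (whole grains) were collected in the middle of grain filling. RNA from 1 plot went on each Affymetrix wheat array, and 61178 probe sets were tested. For reference, 89 arrays of Cordiale, Hereward, Istabraq, Malacca and Marksman came from the same site and years. As far as the labels say, only nitrogen level separated the Xi_19 groups within a year.

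Nitrogen supplied to wheat is carried to the filling grain and stored as protein in the starchy endosperm. The main stores are the gliadins and glutenins, which form gluten, and smaller amounts lie in avenin-like proteins, amylase inhibitors and serpins. Serpins of cereal endosperm are abundant soluble proteins that inhibit proteases by acting as suicide substrates, and in wheat and barley grain they are known to accumulate during filling. In whole caryopses, fewer cells of a type and less RNA per cell cannot be told apart.

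Signals are the authors' RMA values on a log2 scale, on which a difference of 1 is a doubling. Over 24 starchy endosperm probe sets, which include the storage proteins, serpins and starch synthesis genes described here, the mean signal in 2010 was 12.60 to 12.63 at N350 and 12.30 to 12.42 at N100, with no overlap. In 2009 it was 12.55 to 12.76 at N350 and 12.49 to 12.58 at N100, where the groups overlapped, and the part of tissue makeup in the differences was not tested. This mean holds the serpins called below, so it is no separate measure of the amount of endosperm. In 2010 the median N350 minus N100 difference was 1.35 for the 5 serpin probe sets. It was 0.11 for 8 gliadin, 0.19 for 3 glutenin, 0.05 for 2 starch synthesis and -0.30 for 6 avenin-like probe sets. The highest signal of any probe set in the 18 plots was 15.05. Precision is limited by the number of arrays: the median SE of an N350 minus N100 difference over both years was 0.0997. The distribution of values differed between years, so every nitrogen difference was taken within a year and the 2 years were then averaged with equal weight.

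Before any comparison, 2 of the 18 arrays stood apart from their groups. They were replicate 1 of N200 in 2009 and replicate 1 of N100 in 2009, with root mean square deviations from the group mean of 0.26 and 0.272 over 24241 probe sets. The other 16 arrays lay at 0.11 to 0.216. In these 2 arrays, transcripts of embryo maturation were low: EM, an early methionine protein of maturing embryos, had a signal of 3.15 at N200 and 2.73 at N100, against 4.65 to 9.35 in all other plots. Rab15, a dehydrin, had 7.14 and 7.30, and WGA2, the embryo lectin wheat germ agglutinin, had 8.58 and 7.77. BMY1, a beta-amylase, was high in the same arrays, at 9.52 and 9.73, against 5.22 to 7.98 elsewhere. The count for N350 against N100 is therefore also given without these arrays.

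**Figure D1:**
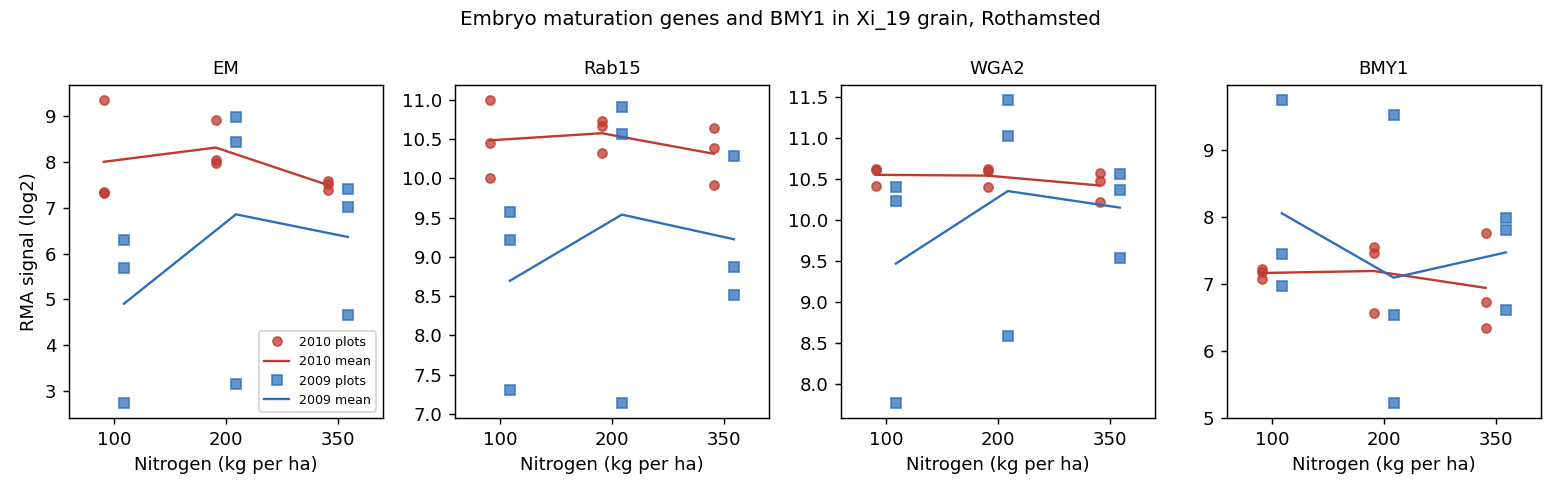
RMA signal (log2, vertical axis) of EM, Rab15, WGA2 and BMY1 in each Xi_19 plot at 100, 200 and 350 kg nitrogen per ha, with circles for 2010, squares for 2009 and lines through the means of 3 plots. In 2009, 1 plot at N200 and 1 at N100 have EM signals of 3.15 and 2.73 and BMY1 signals of 9.52 and 9.73.

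With more nitrogen, 2 named genes rose in Xi_19 grain, and both encode endosperm serpins. WSZ1c was 3.14-fold higher and WSZ2b 1.98-fold higher in N350 than in N100 grain. In addition, 8 probe sets without a gene name rose and 6 fell. These 16 probe sets are 0.0262% of the 61178 tested (limma, Benjamini-Hochberg adjusted p under 0.05), with 0.0163% higher and 0.00981% lower, and 13 of them differed by at least 1.5-fold. At an unadjusted p under 0.05 there were 4822 probe sets, or 7.88%.

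WSZ1c (probe set Ta.118.1.S1_at) had signals of 10.87, 11.22 and 11.64 in the N350 plots of 2010, against 9.50, 8.29 and 8.36 in the N100 plots. In 2009 it had 10.05, 10.14 and 10.47 at N350, against 9.37, 9.28 and 9.69 at N100. Every N350 plot was above every N100 plot in both years, and the 2010 plots were farther apart. At N200 the signals were 10.98, 9.85 and 10.64 in 2010 and 10.26, 9.79 and 10.02 in 2009. The mean over both years was 10.73 ± 0.63 at N350 and 9.08 ± 0.60 at N100 (SD, n = 6 plots each). The difference was 1.65 on the log2 scale (SE 0.21, limma adjusted p = 0.00539), and it was 2.53 in 2010 (adjusted p = 0.00163) and 0.77 in 2009 (adjusted p = 1).

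WSZ2b (Ta.117.1.S1_at) had signals of 13.13, 13.35 and 13.42 at N350 in 2010, against 12.37, 11.59 and 11.25 at N100. In 2009 the signals were 12.71, 12.87 and 13.12 at N350 and 12.22, 12.49 and 12.75 at N100. The groups did not overlap in 2010, and in 2009 the highest N100 plot lay above the lowest N350 plot. The difference was 0.99 (SE 0.15, limma adjusted p = 0.0179), with 1.56 in 2010 (adjusted p = 0.00593) and 0.41 in 2009 (adjusted p = 1).

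The serpin list holds 5 probe sets of 4 genes, of which 2 rose and none fell, beside 0.0163% of all probe sets called higher. This list was chosen with earlier results of these data known, so the count is no test of the list. All 5 differences were above 0, with a median of 0.86 beside -0.01 over all probe sets. WSZ2a (Ta.119.1.S1_x_at) had signals of 13.11, 13.13 and 13.45 at N350 in 2010, against 12.20, 11.58 and 11.84 at N100. Its groups did not overlap in 2010, when the difference of 1.35 was called (adjusted p = 0.0245), while the mean difference of both years was 0.86 (adjusted p = 0.0854). The 2 probe sets of WSZ1b, Ta.1314.1.S1_at and Ta.1314.1.S1_s_at, had smaller differences of 0.29 and 0.25 (adjusted p = 0.312 and 0.486). Wheat serpins are closely related, and a probe set whose name ends in x_at or s_at can bind transcripts of related genes, so these values may not be of single genes.

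**Figure D2:**
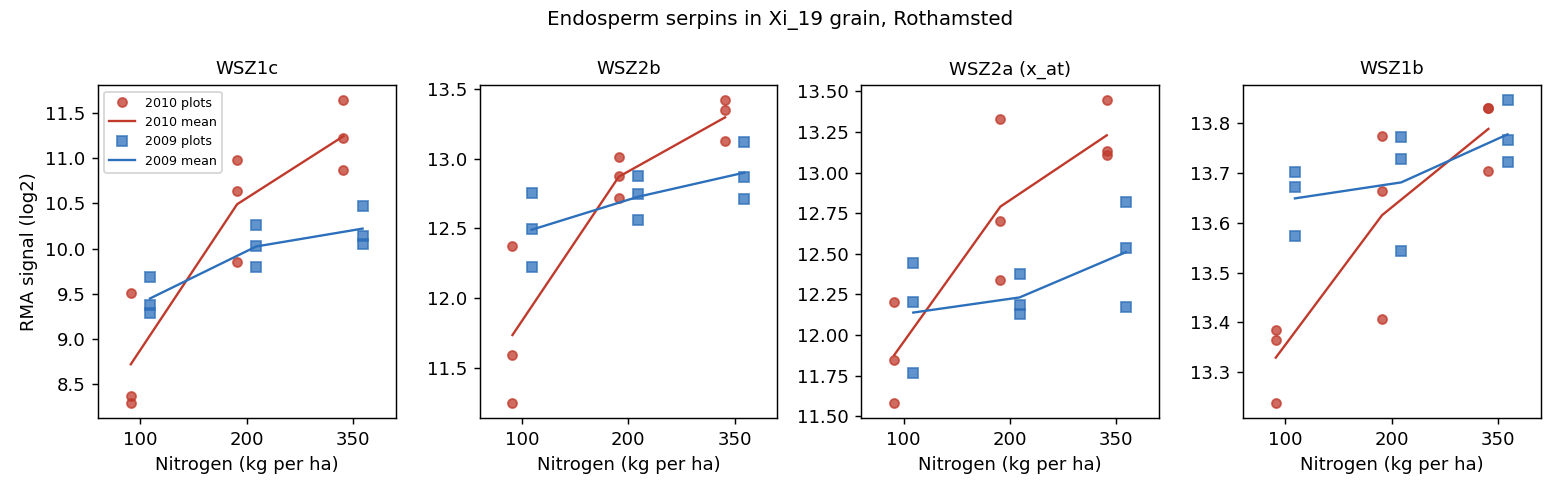
RMA signal (log2, vertical axis; each panel has its own range) of 4 endosperm serpins in each Xi_19 plot at 100, 200 and 350 kg nitrogen per ha, with circles for 2010, squares for 2009 and lines through the means of 3 plots. For WSZ1c the N350 plots of 2010 (10.87 to 11.64) lie above all N100 plots of that year (8.29 to 9.50), and the 2009 plots are closer together.

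Of the probe sets without a gene name, 3 with the same cluster number in their IDs had the largest rises. Ta.28750.2.A1_x_at had 9.78, 10.29 and 9.95 at N350 in 2010, against 8.36, 8.66 and 8.40 at N100. The 2009 plots had 9.93, 9.70 and 9.78 at N350, against 8.45, 8.52 and 9.05 at N100. All 6 N350 plots lay above all 6 N100 plots, and of all called probe sets this one had the smallest adjusted p. Its difference was 1.33 (SE 0.12, limma adjusted p = 7.42e-05), with 1.53 in 2010 and 1.13 in 2009. Ta.28750.1.S1_x_at and Ta.28750.1.S1_at differed by 1.31 and 1.29 (adjusted p = 0.00804 each) and did not overlap in either year. These 3 may bind one transcript or close copies, so they are not independent results.

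The 3 largest falls were those of Ta.11205.1.A1_a_at, Ta.3504.1.A1_at and Ta.13983.1.S1_at. Ta.11205.1.A1_a_at had 9.01, 9.15 and 8.74 at N350 in 2010, against 10.28, 10.65 and 10.65 at N100. In 2009 it had 10.30, 9.67 and 9.72 at N350, against 10.17, 10.18 and 10.15 at N100. The groups were apart in 2010 only and overlapped in 2009, and the mean difference was -0.92 (SE 0.14, limma adjusted p = 0.0262). Ta.3504.1.A1_at differed by -0.71 (adjusted p = 0.0459) and Ta.13983.1.S1_at by -0.68 (adjusted p = 0.0262). The Ta.3504.1.A1_at signals were 7.41, 7.41 and 7.09 at N350 in 2010 and 7.60, 7.16 and 7.83 in 2009, against 8.07, 8.15 and 8.27 at N100 in 2010 and 8.15, 7.97 and 8.15 in 2009. Each of its N350 plots was lower than all N100 plots of the same year.

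The other 5 rises were Ta.13232.1.S1_at at 1.12, Ta.28702.3.S1_x_at at 0.89, TaAffx.106818.1.S1_at at 0.81, TaAffx.82838.1.S1_at at 0.74 and Ta.9940.1.A1_at at 0.63. The other 3 falls were Ta.11548.1.A1_at at -0.55, Ta.11623.2.A1_at at -0.53 and TaAffx.61466.1.S1_at at -0.50. They complete the 16 called probe sets and were named for that reason.

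These calls rest on few plots. Without replicate 1 of every group 19 probe sets were called, without replicate 2 none were (limma) and without replicate 3 only 1 was. WSZ1c kept a difference of 1.53 and 1.46 without replicates 2 and 3, but its adjusted p was then 0.396 and 0.524. Without the N100 array of 2009 that stood apart 6 probe sets were called, without the N200 array 19, and without both 11. WSZ1c remained among them without both (adjusted p = 0.0183), and WSZ2b did not (adjusted p = 0.0524). The difference between the 3′ and 5′ probe sets of 3 control genes, a sign of RNA quality, ran from -1.29 to -1.05 at N350 and from -1.20 to -0.78 at N100 in 2010 and from -1.27 to -1.15 at N350 and from -1.21 to -0.961 at N100 in 2009. With this difference as a term in the fit 3 probe sets were called. WSZ1c was among them (adjusted p = 0.0214) and WSZ2b was not (adjusted p = 0.195).

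Among other grain proteins no probe set was called. All 8 gliadin probe sets, of 5 genes for the main alcohol-soluble gluten proteins, had differences above 0 in each year. Of all probe sets, 48.5% lay above 0 in 2010 and 46.1% in 2009. The gliadin median over both years was 0.18, beside -0.01 over all probe sets, of which 45.8% lay above 0 over both years. The Gli-D2-16 probe set (Ta.24114.1.S1_x_at), which has the highest mean of the list, had 14.95, 14.93 and 14.94 at N350 in 2010 and 14.98 to 15.01 in 2009. At N100 it had 14.88, 14.79 and 14.83 in 2010 and 14.98, 14.94 and 14.93 in 2009. The difference was 0.08 (95% interval -0.05 to 0.20, adjusted p = 0.786), and these signals lie close to the highest on the array, where a change in RNA may show little. The largest gliadin difference was 0.36 for GAG56D (Ta.28632.1.S1_x_at), a gamma-gliadin, singled out after its values were seen. Its plots had 13.73, 13.84 and 13.89 at N350 in 2010, against 13.33, 13.23 and 13.27 at N100, with no overlap. Its adjusted p was 0.127 over both years and 0.0686 in 2010.

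Glu-D3, which encodes glutenin subunits of low molecular weight, had 3 probe sets with a median difference of 0.16, and none was called. Ta.160.1.S1_x_at had 11.62, 11.13 and 11.39 at N350 in 2010, against 11.20, 11.16 and 11.23 at N100, so the groups overlapped. The difference over both years was 0.16 (95% interval -0.16 to 0.47).

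All 6 avenin-like storage protein probe sets had differences below 0 over both years, where 45.8% of all probe sets lay above 0. Their median was -0.22, and none was called. ALP (Ta.27777.1.S2_s_at) had 14.09, 14.10 and 13.98 at N350 in 2010, against 14.28, 14.41 and 14.38 at N100. The 2009 plots had 14.35, 14.42 and 14.40 at N350, against 14.70, 14.48 and 14.44 at N100. Every N350 plot was lower than the N100 plots of its year, and the difference was -0.22 (95% interval -0.41 to -0.04, adjusted p = 0.573). In 2010 all 6 probe sets of the list were lower in every N350 plot than in any N100 plot, beside 21.6% of all probe sets whose groups did not overlap in either direction. In 2009 this held for 1 of 6, beside 7.65%. The groups of 2010 also did not overlap for 6 of 6 amylase and protease inhibitor and 8 of 8 defence probe sets. The same held for 7 of 8 gliadin, 5 of 5 serpin, 4 of 5 nuclear chloroplast and 5 of 7 cytoskeleton probe sets. Several lists had less, with 1 of 13 embryo, 3 of 18 histone and 5 of 28 rbcl probe sets. For glutenins it was 0 of 3, and for fructan and gibberellin genes 0 of 4 each. Counting only mean signals of 6 or more, 7134 of 24241 probe sets did not overlap in 2010.

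Amylase and protease inhibitors also had 6 of 6 differences below 0 over both years, where 45.8% of all probe sets lay above 0. None of the 6 was called, and their median was -0.07. ATI (Ta.23798.1.S1_s_at), an alpha-amylase and trypsin inhibitor, differed by -0.05 (adjusted p = 0.884). The subtilisin-chymotrypsin inhibitor wci (Ta.10170.1.S1_at) differed by -0.28 (adjusted p = 0.444). Its signals were 13.68, 13.70 and 13.62 at N350 in 2010, against 13.84, 14.06 and 14.07 at N100, and 13.78, 14.02 and 13.96 at N350 in 2009, against 14.14, 14.15 and 14.18 at N100. The wci plots did not overlap in either year.

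Starch synthesis genes were near 0. AGP-S, a small subunit of the ADP-glucose pyrophosphorylase that makes the sugar donor for starch, had 13.58, 13.52 and 13.51 at N350 in 2010, against 13.45, 13.42 and 13.53 at N100, and its difference over both years was 0.00 (95% interval -0.17 to 0.17). Wx-A1, which makes amylose on the starch granule, differed by -0.07 (95% interval -0.25 to 0.12). BMY1 differed by -0.40 with a wide interval of -1.56 to 0.75. Its signals were 6.61, 7.81 and 7.98 at N350 and 9.73, 6.97 and 7.45 at N100 in 2009, so the groups overlapped. Of 4 fructan probe sets none was called, and 1-FEH, a fructan exohydrolase, differed by 0.11 (adjusted p = 0.891).

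The list of nuclear genes for chloroplast proteins, which mark the green pericarp of the grain, had 5 of 5 differences above 0 in each year, with a median of 0.21, and none was called. Of all probe sets, 48.5% lay above 0 in 2010 and 46.1% in 2009. Another such gene, petC, lay outside this list. Its 2 probe sets differed by 0.01 and -0.04 in 2009, the second at a low mean signal of 3.21. PsbP, a protein of the water-splitting part of photosystem II, had 11.15, 11.35 and 11.31 at N350 in 2010, against 10.89, 10.81 and 10.73 at N100 (Ta.85.1.S1_at). In 2009 its signals were 10.99, 11.27 and 11.39 at N350, against 10.97, 11.06 and 11.09 at N100. The plots were apart in 2010 and overlapped in 2009, and the difference was 0.32 (adjusted p = 0.428). The mean of the 5 probe sets was 10.15 to 10.34 at N350 and 9.91 to 10.07 at N100 in 2010. In 2009 it was 9.97 to 10.33 at N350 and 9.91 to 10.07 at N100, and the part of green tissue in the other differences was not tested. The chloroplast gene rbcl, for the large subunit of Rubisco, had 28 probe sets with 17 differences above 0 and none called, and only 5 of them had a mean signal of at least 6.

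Embryo maturation and LEA genes (late embryogenesis abundant, protecting the drying seed) had 13 probe sets, 11 with differences above 0 over both years, and none was called. In 2010 only 2 of 13 were above 0, and in 2009 11 were, where 1 of the 3 N100 plots was the array with low EM. The list mean was 8.45 to 8.73 at N350 and 8.46 to 9.50 at N100 in 2010, and 7.27 to 8.54 at N350 and 6.41 to 8.05 at N100 in 2009. Thus the nitrogen groups overlapped in both years. PER1 (Ta.14503.1.S1_at), a seed peroxiredoxin and the member with the highest mean, differed by -0.05 (95% interval -0.30 to 0.19).

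None of the remaining lists had a called member. The small heat shock protein hsp16.9A had 8.74, 10.28 and 7.74 at N350 in 2010, against 10.48, 9.96 and 9.95 at N100. Signals of 2009 were 9.55, 9.25 and 8.55 at N350, against 8.53, 10.53 and 10.30 at N100. The plots of hsp16.9A overlapped in both years, and its difference of -0.94 had an interval of -2.08 to 0.20 (adjusted p = 0.697). Among 18 histone probe sets 6 differences were above 0, with a median of -0.02. wcH2A-9 (Ta.27657.6.S1_x_at) had a difference of -0.05 (95% interval -0.37 to 0.27). Of 7 cytoskeleton probe sets 1 was above 0, with a median of -0.09, and the alpha-tubulin TUBA (Ta.812.1.S1_x_at) differed by -0.16 (adjusted p = 0.6).

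The defence list of thionins, lipid transfer proteins and PR5 had 2 of 8 above 0, and the thionin THI1.1 (Ta.23967.1.S1_s_at) differed by -0.04. Gibberellin 20-oxidases, enzymes of gibberellin synthesis, had 1 of 4 above 0, and GA20ox1d (Ta.141.1.S1_x_at) differed by -0.07. Antioxidant and glutathione genes had 3 of 8 above 0, and HGGT, an enzyme of tocotrienol synthesis, differed by 0.01. FKBP70, a peptidyl-prolyl isomerase of protein folding, differed by -0.17 (Ta.28955.1.S1_at). The ubiquitin-conjugating enzyme UBC1 (Ta.2711.1.S1_x_at) differed by -0.18, and the TATA-binding protein TBP1 by -0.16. Over all 200 named probe sets 91 differences were above 0, with a median of -0.02.

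**Figure D3:**
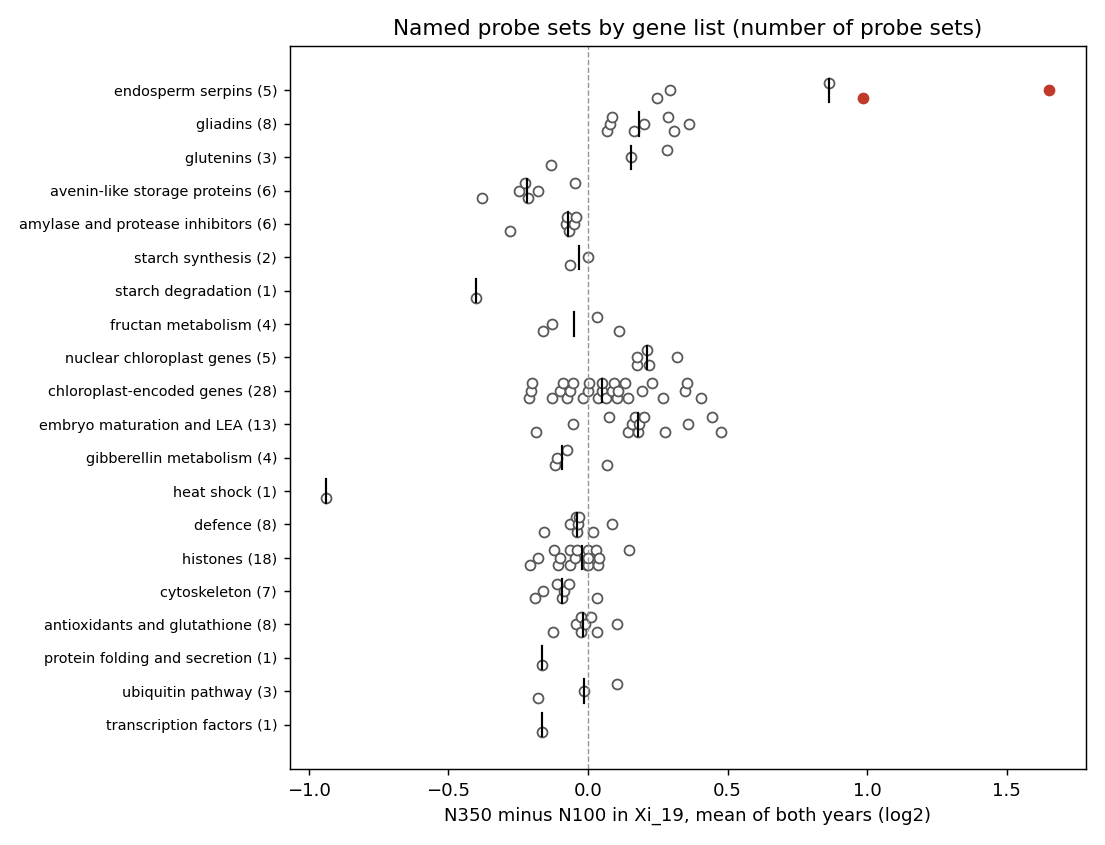
Difference between N350 and N100 in Xi_19, mean of both years (log2, horizontal axis), for each named probe set, with a row per gene list and the number of its probe sets in brackets. Filled points are called, open points are not, and black bars are list medians: WSZ1c (1.65) and WSZ2b (0.99) are the filled points, and the gliadin and avenin-like medians are 0.18 and -0.22.

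More probe sets were called in 2010 than in 2009, but the difference between the years did not pass the test for any probe set. In 2010, 29 probe sets were called (0.0474%), 16 higher (0.0262%) and 13 lower (0.0212%), and 15 of them are among the 16 called over both years. At an unadjusted p under 0.05 there were 7102 in 2010 (11.6% of those tested) and 2403 in 2009 (3.93%). In 2009 none was called (limma), and 1 was called in a fit over all 161 arrays. The median SD between plots of a group was 0.130 in 2010 and 0.166 in 2009.

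The 2009 plots entered the calling of the 29 probe sets of 2010 only through the shared estimate of spread. In 2009 all 29 differed in the same direction as in 2010, where 49.5% of all probe sets had the same sign in both years. Of these 29, the N350 and N100 plots of 2009 did not overlap for 13, beside 7.65% of all probe sets. The median size of the difference was 0.991 in 2010, where they were chosen, and 0.318 in 2009. Across all 61178 probe sets the differences of 2010 and 2009 had a Pearson correlation of 0.0274, and across 24241 with a mean of at least 6 it was 0.0935. Probe sets are not independent replicates, and those of one year share its arrays.

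Among named genes the 5 with the smallest p for the difference between years were WSZ1c at 1.75, WSZ2b at 1.15, ALMT1-1 at -1.28, WSZ2a at 0.98 and GAG56D at 0.37 (2010 minus 2009, limma adjusted p = 0.673 each). The GAG56D value is of Ta.28632.1.S1_x_at. The 8 gliadin probe sets ran from -0.44 to 0.37, and the lowest was another GAG56D probe set, Ta.28632.1.A1_at, so the probe sets of this gene went opposite ways. ALMT1-1, an aluminium-activated malate transporter, had 4.70, 5.13 and 4.81 at N350 in 2010, against 6.29, 6.19 and 6.08 at N100. The 2009 plots had 5.12, 4.89 and 5.0 at N350, against 5.03, 5.45 and 4.63 at N100. The plots of ALMT1-1 were apart in 2010 and overlapped in 2009. No probe set was called for the difference between years, with 4505 (7.36%) at an unadjusted p under 0.05 and 2 called in the fit over all arrays.

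**Figure D4:**
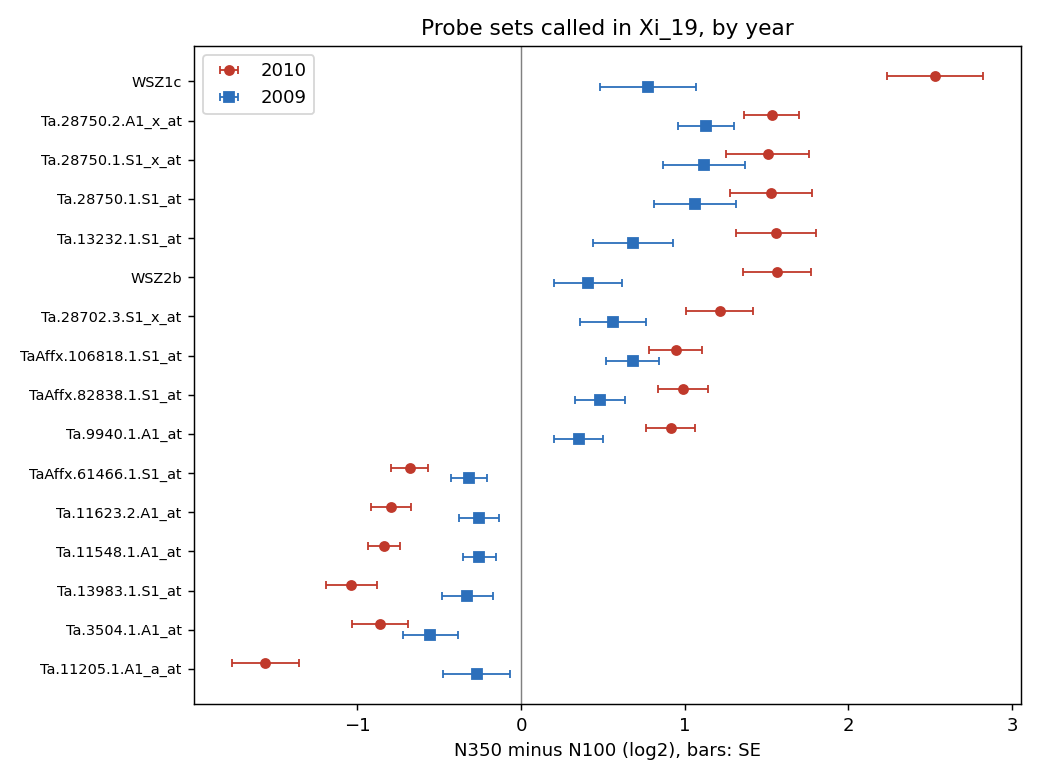
Difference between N350 and N100 (log2, horizontal axis) of the 16 probe sets called in Xi_19, in 2010 (circles) and 2009 (squares), with bars of 1 SE. Every probe set differs in the same direction in both years and is farther from 0 in 2010, and WSZ1c has the largest difference (2.53 in 2010 and 0.77 in 2009). The 16 were called on the mean of these years, so their shared direction is partly built in. Of all probe sets, 59.4% were farther from 0 in 2010.

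The middle dose gives the course of the response. No probe set was called for N200 against N100 (limma, 3441 or 5.62% at an unadjusted p under 0.05) or for N350 against N200 (1832 or 2.99% at an unadjusted p under 0.05), and 3 and 0 were called in the fit over all arrays. These comparisons share the N200 plots with each other, and each shares plots with N350 against N100. WSZ1c differed by 1.18 between N200 and N100 and by 0.48 between N350 and N200. WSZ2b differed by 0.69 and 0.30 over the same steps, and the fall Ta.11548.1.A1_at by -0.46 and -0.08. In Ta.28750.2.A1_x_at the steps were 0.53 and 0.80, over 100 to 200 and 200 to 350 kg per ha, and its N200 signals were 9.60, 9.14 and 9.16 in 2010 and 8.82, 8.82 and 9.10 in 2009. In Ta.13232.1.S1_at the steps were 1.04 and 0.08. No test was made of whether the steps differ.

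The nitrogen response of Xi_19 was then set against that of the other 5 cultivars, which share no array with it. WSZ1c differed between N350 and N100 by 1.65 in Xi_19 and by 1.47 in Marksman, 1.84 in Malacca, 1.23 in Istabraq, 1.58 in Hereward and 0.65 in Cordiale. WSZ2b differed by 0.99 in Xi_19 and by 0.56 to 1.33 in the others. Ta.28750.2.A1_x_at differed by 1.33 in Xi_19 and by 0.53 to 1.55 in the others. For WSZ1c the difference of Xi_19 minus the mean of the others was 0.30, and for WSZ2b 0.12 (limma adjusted p = 1 each). All 16 probe sets called in Xi_19 differed in the same direction in each of the other 5 cultivars. That held for 20.2% of all probe sets and for 28.6% of those with a mean of at least 6. Across all probe sets the Xi_19 differences and the mean differences of the others had a Pearson correlation of 0.597, and 0.685 across those with a mean of at least 6.

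**Figure D5:**
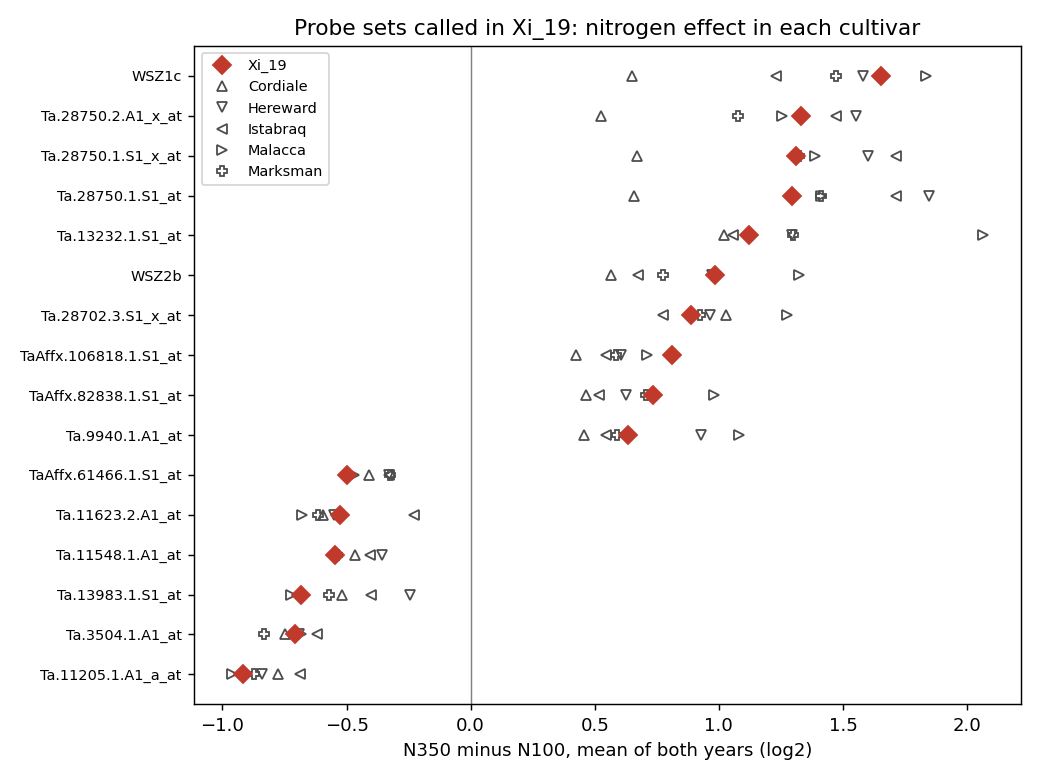
Difference between N350 and N100, mean of both years (log2, horizontal axis), of the 16 probe sets called in Xi_19, in Xi_19 (filled diamonds) and in each of the other 5 cultivars (open symbols). All symbols of a probe set lie on the same side of 0, and WSZ1c is at 1.65 in Xi_19 and 0.65 to 1.84 in the others.

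A single probe set, 0.00163% of those tested, differed in its nitrogen response between Xi_19 and the mean of the others, and 1859 (3.04%) had an unadjusted p under 0.05. TaAffx.36956.2.S1_at, without a gene name, had 3.76, 3.39 and 3.85 at N350 in 2010, against 4.54, 4.31 and 4.64 at N100. In 2009 it had 3.66, 3.59 and 3.34 at N350, against 4.30, 3.93 and 3.97 at N100. Every N350 plot was lower than the N100 plots of its year, all at low signals, but the probe set was chosen by a test on these plots. The difference was -0.68 in Xi_19, where it was not called on its own (limma adjusted p = 0.0677), and -0.03 to 0.15 in the other cultivars, and Xi_19 minus the others was -0.70 (SE 0.10, limma adjusted p = 4.03e-05). Without replicate 2 or replicate 3 it was not called (adjusted p = 0.0962 and 0.0842).

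Of named genes, the 5 with the smallest p for this difference were ALMT1-1, rbcl, wci, COR410 and TBP1, and none was called. ALMT1-1 differed between N350 and N100 by -0.67 in Xi_19 and by -0.13 to 0.26 in the others, and Xi_19 minus the others was -0.73 (adjusted p = 0.139). The probe set of rbcl was TaAffx.128414.44.S1_at, at -0.31, and wci was at 0.29, since it differed by -0.28 in Xi_19 and by -0.91 to -0.37 in the others. The dehydrin COR410 was at -0.19 and TBP1 at -0.15 (adjusted p = 1 for these 4). This rbcl probe set and COR410 had low mean signals, of 2.85 and 3.69. The 28 rbcl probe sets ran from -0.42 to 0.40 for this difference.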

How the data were processed

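One array per plot was hybridised with RNA from caryopses. The authors deposited log2 values, summarised by RMA according to the submitters' processing notes. The sources used here do not give its version or say whether all seasons were normalized together. From 61288 rows, 110 control probe sets were left out and 61178 were tested, with no filter on low values. Samples were grouped by their titles. limma 3.58.1 in R 4.3.3 was fitted to the 18 Xi_19 arrays of Rothamsted in 2009 and 2010 (6 groups of 3 plots, 12 residual degrees of freedom), with a mean per group, contrasts and eBayes. Tests were two-sided, Benjamini-Hochberg adjusted over all 61178 probe sets, and called at an adjusted p under 0.05. The comparison with the other cultivars used 107 arrays in 36 groups. The fit was tested on simulated data.

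A platform annotation table gave 1 gene to 1273 probe sets and none to 59905, and 200 probe sets of 102 genes carried a name of a protein (101 different names, since 2 genes are both called ATI). Genes in the text were named by rule: called genes whose higher group averaged at least 6 and whose sign was the same in both years, then the called member or the member with the highest mean of each list, the 5 smallest p for the year and cultivar differences, and up to 3 unnamed probe sets per direction. The other called probe sets, GAG56D and wci in the main comparison were named after their values were seen. Of 21 gene lists 20 had members, and the list of nitrogen assimilation and transport had none. The members and lists were chosen with earlier results of these data known. Plots are the replicates that the labels name as biological. Alternatives were fits over all arrays, other normalizations and filters, array weights, a replicate block and leaving out plots or cultivars.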

Additional observations from a re-analysis of the deposited data

Results flagged for a closer look

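The nitrogen difference of TaAffx.36956.2.S1_at, N350 minus N100 in Xi_19 minus the mean of the other 5 cultivars, was -0.70 on the log2 scale (limma adjusted p = 4.03e-05), so that the response differed between cultivars by a test of the difference itself. N350 was lower in 6 of 6 Xi_19 plots, when each is set against the N100 plots of its year. The probe set was chosen by a test on these plots, so their order is no separate support. Of all probe sets, 0.86% did not overlap in both years in the same direction. Without replicate 2 or replicate 3 this probe set was not called. The value ran from -0.74 to -0.62 over the alternatives, and its signals in Xi_19 plots were 3.34 to 3.85 at N350 and 3.93 to 4.64 at N100.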

How the results depend on the processing

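The number of probe sets called for N350 against N100 over both years (16 as reported) was 121 in the fit over all 161 arrays, 26 with an intensity trend and robust hyperparameters together, 28 with array weights, 3 with the 3′ to 5′ term, 6 without the N100 array of 2009 that stood apart, and 0 to 19 when a replicate was left out. For 2010 (29) it was 374 over all arrays, 46 with low probe sets (mean under 6) left out, 2696 with array weights, 7 with the 3′ to 5′ term, 33 without the N200 array of 2009 that stood apart, 60 without both, and 0 to 17 when a replicate was left out. For 2009 (0) it was 1 over all arrays. For N200 against N100 (0) it was 3 over all arrays, 1 with low probe sets left out and 7 with array weights. For N350 against N200 (0) it was 0 to 5 when a replicate was left out. For the difference between years (0) it was 2 over all arrays. For Xi_19 against the other cultivars (1) it was 2 over all arrays, 0 with low probe sets left out, 2 with the 3′ to 5′ term, 3 with only the N100 and N350 arrays, and 0 to 1 when a replicate was left out. Leaving out a replicate leaves 2 plots per group. Leaving out low probe sets takes TaAffx.36956.2.S1_at (mean 3.96), the 1 called against the other cultivars, out of the test. The cause of the other moves was not tested. Over 14 alternatives, WSZ1c was called in 12, WSZ2b in 9 and Ta.28750.2.A1_x_at in 13, with no change of direction. Between nitrogen levels the shift of all probe sets was small. Their median N350 minus N100 difference was -0.01 as reported and -0.000728 after quantile normalization.

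With the replicate number as a block, 32 probe sets were called over both years and 79 in 2010. It moved no count of the other comparisons. The labels do not say that a number marks a shared block. Of 18 correlations between deviations of plots with the same number, 10 were over 0.1, and they ran from -0.197 to 0.776. For N350 with N100 they were 0.118, 0.355 and 0.312 in 2009, and 0.0228, -0.0282 and -0.00968 in 2010. The alternatives that leave out an array that stood apart were chosen after seeing the data. Leaving out either or both of them changed no count for 2009 (0), N200 against N100 (0), N350 against N200 (0), the difference between years (0) or the other cultivars (1).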

Other observations

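Xi_19 was also grown at N200 in other environments, at a second site named RAGT and in 2011. WSZ1c had signals of 10.33, 10.43 and 9.71 at RAGT in 2010, against 10.98, 9.85 and 10.64 at Rothamsted in the same year, so the sites overlapped. In 2011 it had 11.39, 11.19 and 11.39 at RAGT and 11.91, 11.52 and 11.99 at Rothamsted, and all RAGT plots were below all Rothamsted plots. WSZ2b had 12.70, 12.75 and 12.31 at RAGT in 2010, against 13.01, 12.72 and 12.88 at Rothamsted, and the sites overlapped. In 2011 it had 13.02, 12.94 and 13.08 at RAGT, against 13.56, 13.19 and 13.55 at Rothamsted, again with no overlap. No test was made of these sites, and levels are not compared between years because the distributions of values differ by year.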
